A study of Mus musculus with 15 samples.

Results

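Il10, Ebi3, Il12a and Fgl2 encode secreted proteins by which regulatory T cells (Tregs) can restrain other immune cells. The 4 genes were taken by name from a table of read counts that holds 24015 genes, and each was read in all 15 libraries. Il10 encodes interleukin 10, a dimeric cytokine that binds a receptor made of IL10RA and IL10RB and signals through STAT3. Ebi3 and Il12a encode the chains that are paired in interleukin 35, and Ebi3 is also a chain of interleukin 27, whose partner chain is encoded by Il27. Fgl2 encodes fibrinogen-like protein 2, whose soluble form binds inhibitory Fc receptors on antigen-presenting cells. In skin, Tregs are known to limit inflammation, and mice whose Tregs lack Il10 develop inflammation at barrier surfaces.

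The libraries came from adult C57BL/6 mice that all carried the Foxp3 cre-eyfp allele, in which Foxp3-expressing cells make the Cre recombinase and a yellow fluorescent protein. Tregs were sorted as CD45+CD3+CD4+YFP+ cells, with 3 biological replicates in each of 5 groups. The first 2 groups were wild-type (WT) for Rora and untreated, one from axillary lymph nodes that drain the skin (LN) and one from skin. The third group came from untreated skin of mice that also carried Rora fl/fl, so that Cre deletes Rora, the gene for the nuclear receptor RORα, in Foxp3-expressing cells (cKO). The last 2 groups, WT and cKO, came from ears painted with MC903 (calcipotriol, a vitamin D analogue that causes an inflammation with features of atopic dermatitis) in ethanol, 4 times on alternate days. Untreated skin was back skin together with ears, treated skin was ear alone, and no group received ethanol alone, so MC903, its solvent and the site cannot be told apart. LN were homogenised while skin was taken apart by a digestion of 90 minutes, so tissue and preparation cannot be told apart either. How many mice each library holds is not given in the sources used here.

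The libraries held 19774723 to 27745008 counted reads. Levels are given as CPM, the reads of a gene per 1000000 reads of its library, after scaling by trimmed mean of M values (TMM), and are written in the order of replicates 1, 2 and 3. All 8 Treg markers examined were detected in every library, and Foxp3 lay between 16.2 and 41.8 CPM in LN and between 110 and 202 CPM in the 12 skin libraries. Rora, the deleted gene, stood at 1327, 1341 and 1509 CPM in WT skin and 821, 1073 and 1198 CPM in cKO skin. The WT MC903 libraries had 812, 739 and 812 CPM and the cKO MC903 libraries 632, 492 and 473 CPM, while LN had 58.6, 52.8 and 66.6 CPM. The cKO libraries were lower than the WT ones at both conditions. The genotypes did not overlap, in either direction, for 13.6% of tested genes in untreated skin and 16% under MC903. The fall of Rora averaged over both conditions was 0.50 on the log2 scale (fitted log2 difference -0.50 ± 0.10, SE; edgeR adjusted p = 0.0193). It was not called in either condition alone. The difference was -0.43 ± 0.15 in untreated skin (edgeR adjusted p = 0.250) and -0.57 ± 0.15 under MC903 (edgeR adjusted p = 0.191). A count over a whole gene cannot show the loss of a single exon. Reads of marker genes of other cells were present. The summed level of 20 macrophage, dendritic and Langerhans cell markers was 800 to 2605 CPM in LN and 525 to 1898 CPM in skin, most of it from class II antigen-presentation genes and Cd74, without which it was 29.4 to 165 CPM in LN and 47.2 to 250 CPM in skin. That of 9 B-cell markers was 181 to 657 CPM in LN and 7.76 to 21.0 CPM in skin, and that of 10 keratinocyte markers was 15.1 to 17.3 CPM in LN and 47.8 to 646 CPM in skin.

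The upstream sequences of Fgl2 and Ebi3 are shown, the 2 genes that passed the filter on low counts and have a start site in the reference. The RefSeq promoter table (build GRCm38.p6) matched 3 of the 4 genes with 4 start sites. The 250 bases before the start are given 5′ to 3′ on the plus strand, chr5:21372423-21372672 for Fgl2 and chr17:55952373-55952622 for Ebi3, with 1 motif match in each in capitals.
Fgl2: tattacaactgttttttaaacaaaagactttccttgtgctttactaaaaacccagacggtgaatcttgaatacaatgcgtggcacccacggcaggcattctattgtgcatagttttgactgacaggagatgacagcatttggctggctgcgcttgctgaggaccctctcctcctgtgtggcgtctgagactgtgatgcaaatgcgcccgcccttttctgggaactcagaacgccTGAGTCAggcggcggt
Ebi3: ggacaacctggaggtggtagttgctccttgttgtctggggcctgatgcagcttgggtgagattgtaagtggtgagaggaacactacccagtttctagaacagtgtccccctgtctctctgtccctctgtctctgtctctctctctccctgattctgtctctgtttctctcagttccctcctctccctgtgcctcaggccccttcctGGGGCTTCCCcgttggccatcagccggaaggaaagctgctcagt
The capitals in Fgl2 mark TGAGTCA, a match to the AP-1 motif TGANTCA that lies 16 to 10 bases before the start. This motif was present in 6.75% of the 32851 promoters searched on both strands over the same length. The Fgl2 sequence also held a match to the STAT motif TTCNNNGAA, 36 to 28 bases before the start, and 7.02% of all promoters held one. In Ebi3 the capitals mark a match, read on the minus strand, to the NF-kappa-B motif GGGANNNNCC at 44 to 35 bases before the start. That motif was in 17.6% of promoters, and the second of the 2 Il12a starts held it as well. The ROR half-site AGGTCA, held by 14% of promoters, was not among the letters of any of the 4 windows. These matches describe the sequence and show no binding.

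Il10, the suppressive cytokine, was nearly silent in LN Tregs and among the most abundant transcripts of skin Tregs. The LN libraries held 1.81, 2.92 and 3.58 CPM. The WT skin libraries held 555, 555 and 545 CPM, and the cKO skin libraries 558, 533 and 549 CPM. All skin values lay far above all LN values, and the 2 genotypes of untreated skin overlapped. Divided by exon length, Il10 in WT skin reached 421 ± 4.56 CPM per kilobase (SD, n = 3) and ranked 112th to 126th of the 12950 tested genes with a known length. In the LN libraries the same rank was between 7228 and 8273. The fitted difference between WT skin and LN was 7.63 ± 0.17 on the log2 scale (SE; 198-fold), with an adjusted p of 4.67e-13 (edgeR's quasi-likelihood F test, adjusted over 13578 genes by Benjamini and Hochberg's method). By this test 28.8% of all tested genes were higher in WT skin and 57.6% differed in either direction, so the call on its own is common, and 1.18% of genes had a larger rise than Il10. The libraries of WT skin and LN did not overlap for 63.4% of genes. The keratinocyte marker sum was also higher in skin than in LN, and was 646, 410 and 279 CPM in the 3 WT skin libraries. Its part in the difference between skin and LN was not tested. In bulk libraries a smaller share of expressing cells and less RNA per cell cannot be told apart, here or in the comparisons that follow.

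**Figure D1:**
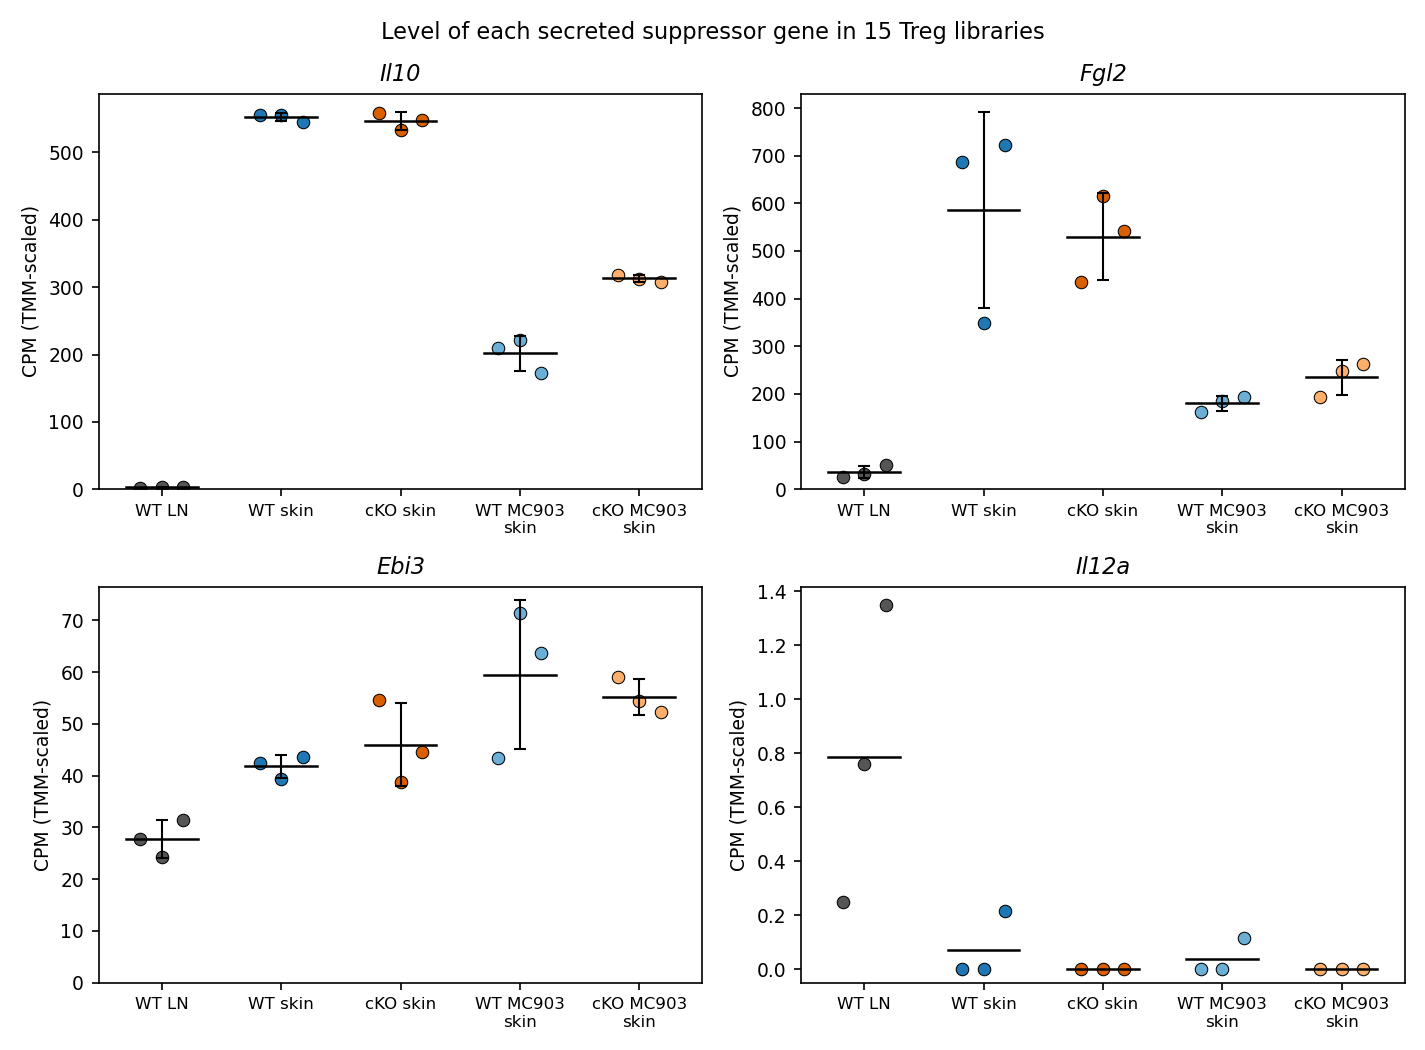
Level of Il10, Fgl2, Ebi3 and Il12a in CPM (vertical axes, each from its own scale) in the 5 groups (horizontal axis). Points are libraries, horizontal bars are means and error bars are 1 SD (n = 3), left out for Il12a because 10 of its 12 skin libraries are at 0. Il10 and Fgl2 are lowest in LN and highest in untreated skin, Ebi3 varies between 24.2 and 71.4 CPM, and Il12a is highest in LN.

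Under MC903, Il10 was lower than in untreated skin in both genotypes. The WT MC903 libraries held 210, 222 and 173 CPM and the cKO MC903 libraries 319, 312 and 308 CPM. Every treated library lay below every untreated one of its genotype. The fitted change was -1.45 ± 0.15 on the log2 scale in WT (2.73-fold lower; edgeR adjusted p = 6.12e-05) and -0.81 ± 0.15 in cKO (1.75-fold lower; edgeR adjusted p = 0.00388). Lower values under MC903 were called for 5.44% of genes in WT and 5.3% in cKO, and the libraries of the 2 conditions did not overlap for 28.2% and 33.4% of genes. Il10 remained far above LN in treated skin, by 6.18 ± 0.17 on the log2 scale in WT MC903 skin (edgeR adjusted p = 3.90e-12), where 26.5% of genes were called higher, 51.1% in either direction, and 62.9% had libraries that did not overlap. The keratinocyte marker sum was 95.7 to 360 CPM in WT MC903 skin against 279 to 646 CPM in WT skin, and 47.8 to 175 CPM against 230 to 368 CPM in cKO. That of 9 fibroblast and endothelium markers was 112 to 313 CPM against 73.1 to 103 CPM in WT, and 159 to 322 CPM against 37.7 to 160 CPM in cKO. That of 7 mast cell and basophil markers was 14.2 to 46.7 CPM against 19.4 to 25.9 CPM in WT, and 17.4 to 45.7 CPM against 10.8 to 18.5 CPM in cKO. Of the 7, 5 were at 0 in all cKO skin libraries and 0 were so in cKO MC903 skin. In WT, 0 of 6 tested were called. In cKO, 1 was called higher and 0 lower, where 5.96% of all tested genes were called higher. It was Cpa3, with a rise of 10.3 on the log2 scale (edgeR adjusted p = 0.0188), while Kit changed by -1.09 ± 0.38 (edgeR adjusted p = 0.0747). The part of these cells in the Il10 difference was not tested either.

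The genotypes stood apart for Il10 under MC903 without passing the test. All 3 cKO MC903 libraries (308 to 319 CPM) were above all 3 WT MC903 libraries (173 to 222 CPM), which was true, in either direction, of 16% of tested genes. The fitted difference was 0.63 ± 0.15 on the log2 scale (95% interval 0.31 to 0.96), and the adjusted p by edgeR's quasi-likelihood test was 0.133, in a comparison that called 0.258% of genes, 0.081% as higher in cKO. DESeq2 and limma-voom put the difference at 0.64 and 0.65 with adjusted p of 1.81e-04 and 0.0026, so the call depends on the tool. In untreated skin the genotypes differed by -0.01 ± 0.15 (95% interval -0.34 to 0.31; edgeR adjusted p = 0.992), in a comparison that called 0.803% of genes, 0.398% as higher in cKO. Averaged over both conditions the cKO difference was 0.31 ± 0.11 (edgeR adjusted p = 0.221; 1.75% of genes called), and DESeq2 and limma-voom gave 0.32 with adjusted p of 0.0173 and 0.0306. The difference between the 2 genotype effects, the interaction, was 0.65 ± 0.22 (95% interval 0.19 to 1.10; edgeR adjusted p = 0.866). The interaction called 0% of genes by edgeR, with 765 genes at an unadjusted p under 0.05, and 21 genes by DESeq2.

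Fgl2 followed the same order of groups as Il10 with a smaller range. The LN libraries held 25.8, 32.8 and 50.8 CPM. The WT skin libraries held 687, 349 and 722 CPM, and the cKO skin libraries 434, 615 and 541 CPM. Replicate 2 of WT skin lay well below the other WT skin libraries, and the genotypes overlapped. Per kilobase of exon the WT skin level was 155 ± 54.4 CPM (SD, n = 3), below that of Il10 and above that of Ebi3. Fgl2 rose from LN to WT skin by 4.00 ± 0.26 on the log2 scale (16.1-fold; edgeR adjusted p = 3.36e-08), and 6.25% of genes rose more. In that comparison 28.8% of all tested genes were called higher, and 63.4% had libraries that did not overlap. Between genotypes of untreated skin the difference was -0.14 ± 0.26 (95% interval -0.70 to 0.41; edgeR adjusted p = 0.891).

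Fgl2 also fell under MC903. The WT MC903 libraries held 162, 185 and 193 CPM and the cKO MC903 libraries 194, 248 and 263 CPM. Treated libraries were below untreated ones in both genotypes, and all were above the LN libraries. Treated and untreated libraries did not overlap for 28.2% of all tested genes in WT and 33.4% in cKO. Lower values under MC903 were called for 5.44% and 5.3%. The fitted change of Fgl2 was -1.70 ± 0.26 on the log2 scale in WT (3.25-fold lower; edgeR adjusted p = 0.0013) and -1.17 ± 0.26 in cKO (2.26-fold lower; edgeR adjusted p = 0.0117). The cKO call was lost without cKO skin replicate 2 (-1.05, edgeR adjusted p = 0.0546) and without cKO MC903 replicate 1 (-1.05, edgeR adjusted p = 0.0505). WT MC903 skin remained above LN by 2.30 ± 0.26 (edgeR adjusted p = 7.26e-06), where 26.5% of genes were called higher and 62.9% had libraries that did not overlap. The cKO MC903 libraries were all above the WT MC903 ones, by narrow margins of 194 against 193 CPM at the closest. The genotypes did not overlap for 16% of all tested genes under MC903. The fitted difference for Fgl2 was 0.38 ± 0.26 (95% interval -0.17 to 0.94; edgeR adjusted p = 0.901). The interaction for Fgl2 was 0.53 ± 0.37 (95% interval -0.26 to 1.31; edgeR adjusted p = 0.898).

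Macrophages also make FGL2, so their markers are given beside it. Of the 21 macrophage, dendritic and Langerhans cell markers listed, 20 were in the table. Their summed level was 800 to 2605 CPM in LN, 713 to 1477 CPM in WT skin, 864 to 1898 CPM in cKO skin, 525 to 677 CPM in WT MC903 skin and 775 to 1050 CPM in cKO MC903 skin. Clec9a was at 0 in all libraries of WT and cKO skin, and Itgam in all of cKO skin. Without the class II antigen-presentation genes and Cd74, the sum over the other 17 was 50.9, 65.8 and 218 CPM in the WT skin libraries whose Fgl2 level was 687, 349 and 722 CPM. In LN that sum was 36.9, 29.4 and 165 CPM beside 25.8, 32.8 and 50.8 CPM of Fgl2. The part of these cells in the Fgl2 differences was not tested. The gene models of Fgl2 and Ccdc146 overlap on opposite strands, but they share 0 exon bases and Ccdc146 had 0 to 7 reads a library.

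**Figure D2:**
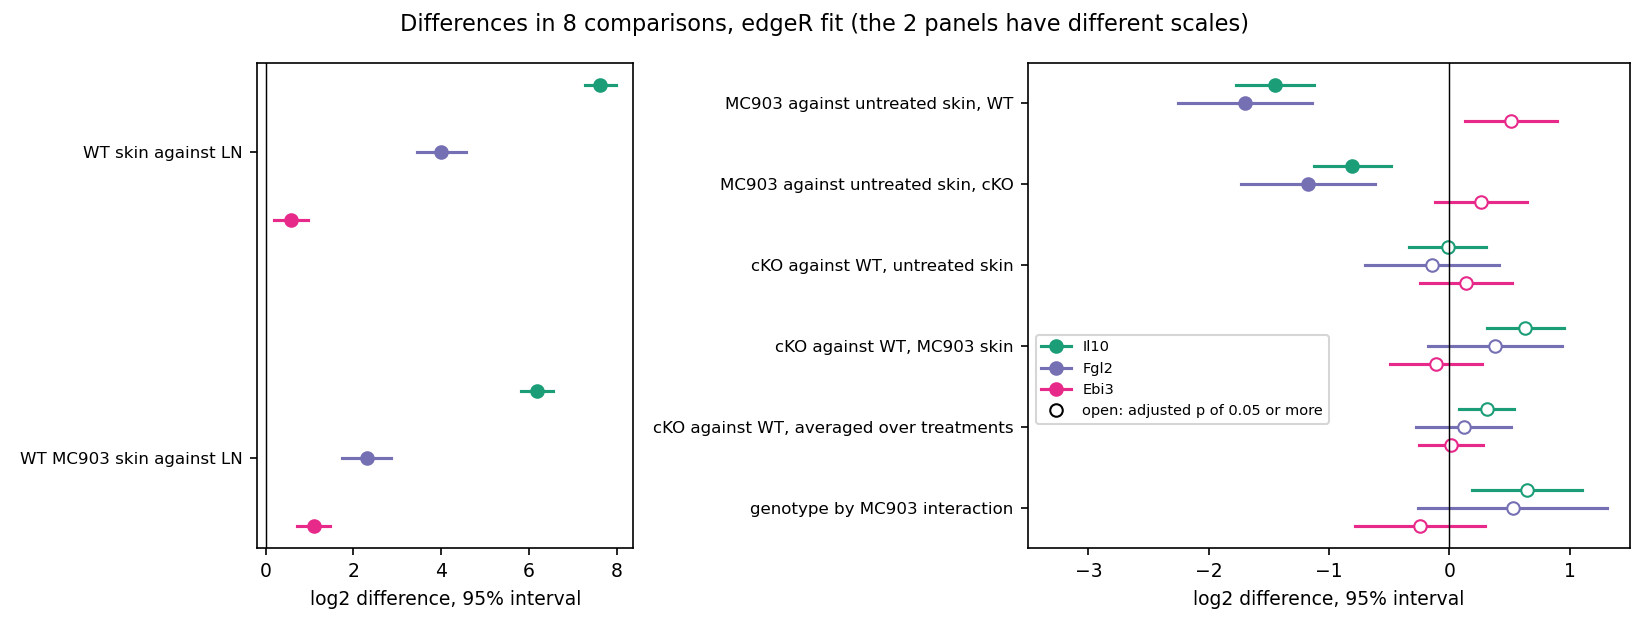
Fitted log2 differences (horizontal axes) of Il10, Fgl2 and Ebi3 in 8 comparisons (vertical axes) with 95% intervals, skin against LN on the left and comparisons within skin on the right. Filled points had an edgeR adjusted p under 0.05. All differences of skin from LN are filled, Il10 and Fgl2 lie to the left of 0 under MC903 in both genotypes, and no genotype difference is filled.

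Ebi3, the chain shared by interleukins 27 and 35, was expressed in every library, between 24.2 and 71.4 CPM. The LN libraries held 27.8, 24.2 and 31.5 CPM. The WT skin libraries held 42.5, 39.4 and 43.6 CPM, and the cKO skin libraries 54.7, 38.7 and 44.6 CPM. All skin libraries were above all LN libraries, and 63.4% of all tested genes had no overlap between WT skin and LN. The rise from LN to WT skin was 0.59 ± 0.18 on the log2 scale (edgeR adjusted p = 0.0118), where 28.8% of genes were called higher and 34.8% rose more. Without LN replicate 2 it was 0.49 and was not called (edgeR adjusted p = 0.0594). Per kilobase of exon Ebi3 stood at 36.2 ± 1.89 CPM in WT skin (SD, n = 3).

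Under MC903, Ebi3 was called neither higher nor lower than in untreated skin by edgeR, where 5.03% of genes were called higher in WT and 5.96% in cKO. The WT MC903 libraries held 43.5, 71.4 and 63.8 CPM and the cKO MC903 libraries 59.0, 54.3 and 52.3 CPM. Replicate 1 of WT MC903 skin lay within the WT skin range, and the others above it. The difference from untreated skin was 0.51 ± 0.18 in WT (95% interval 0.13 to 0.89; edgeR adjusted p = 0.084), and without WT MC903 replicate 1 it was 0.70 and called (edgeR adjusted p = 0.0239). In cKO it was 0.26 ± 0.18 (95% interval -0.12 to 0.65; edgeR adjusted p = 0.374). Against LN, WT MC903 skin was higher by 1.10 ± 0.18 (2.14-fold; edgeR adjusted p = 1.32e-04), where 26.5% of genes were called higher. The genotypes differed by 0.14 ± 0.18 in untreated skin (95% interval -0.25 to 0.52; edgeR adjusted p = 0.836) and by -0.11 ± 0.18 under MC903 (95% interval -0.49 to 0.27; edgeR adjusted p = 0.997).

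The exons of Ebi3 share 270 bases with Gm16712, an antisense gene on the opposite strand, in the GENCODE annotation of GRCm38. Whether reads were counted by strand is not given in the sources used here, so reads of this stretch cannot be assigned. Gm16712 had 48 to 245 reads a library, with 2.20, 1.84 and 3.54 CPM in LN, 4.35, 3.31 and 3.88 CPM in WT skin and 4.71, 9.10 and 6.49 CPM in WT MC903 skin. It was higher in WT MC903 skin than in LN (1.42 ± 0.39 on the log2 scale; edgeR adjusted p = 0.00733) and was called in none of the other comparisons by edgeR.

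Il12a, the chain that completes interleukin 35, was detected in the LN libraries and was nearly absent from the skin ones. The LN libraries held 7, 24 and 43 reads, or 0.249, 0.761 and 1.35 CPM. Of the 12 skin libraries, 10 held 0 reads, replicate 3 of WT skin held 4 and replicate 3 of WT MC903 skin held 3. The pooled LN level was 0.808 CPM (95% exact Poisson interval 0.634 to 1.01, counting error only). It was 12.6 times the pooled WT skin level of 0.0641 CPM (interval 0.0175 to 0.164) and 21.4 times the WT MC903 level of 0.0378 CPM (interval 0.00779 to 0.110). In cKO skin, with 0 reads, the interval reached 0.0509 CPM, and in cKO MC903 skin, also with 0 reads, 0.0570 CPM. The pooled LN level was 19.5 and 17.4 times the level that 3 reads over each of these groups would give. These ratios leave out the spread between the LN libraries and are not lower bounds.

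Il12a did not pass the filter on low counts and so has no value in the fit. With the filter lowered to 1 read, edgeR gave a difference of -3.40 between WT skin and LN (adjusted p = 0.175) and -4.18 between WT MC903 skin and LN (adjusted p = 0.119), so the difference was not called. The authors' deposited table, which covers only WT LN over WT skin, has 1.45 ± 0.67 (SE) on the log2 scale for Il12a with an adjusted p of 0.0535. In that table Il10 is at -7.58, Fgl2 at -3.93 and Ebi3 at -0.62, where negative values mean lower in LN. The B-cell marker sum in the 3 LN libraries was 210, 181 and 657 CPM, beside 0.249, 0.761 and 1.35 CPM of Il12a. Replicate 3 was highest in both, while replicate 1 had a higher B-cell sum and less Il12a than replicate 2. The macrophage, dendritic and Langerhans cell sum without class II genes and Cd74 was 36.9, 29.4 and 165 CPM. Replicate 3 was highest in it too, and replicate 1 was again above replicate 2. Whether B cells or myeloid cells contributed these reads was not tested.

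The other partner chains of Ebi3 and Il12a were scarcely present. Il27, which encodes the p28 chain of interleukin 27, had 0 reads in all 15 libraries. Il12b, the p40 chain that pairs with Il12a in interleukin 12, was at 0 in 12 of 15 libraries, with 21 reads in all. Of these reads, 12 were in replicate 3 of LN. Il23a, the p19 chain of interleukin 23, was also at 0 in 12 of 15 libraries, with 32 reads in all and 21 of them in replicate 3 of WT skin. None of these chains passed the filter, so Ebi3 was the only chain of the family with a steady level in these cells. A count of 0 does not show that a transcript was absent, since a low level can yield 0 reads.

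**Figure D3:**
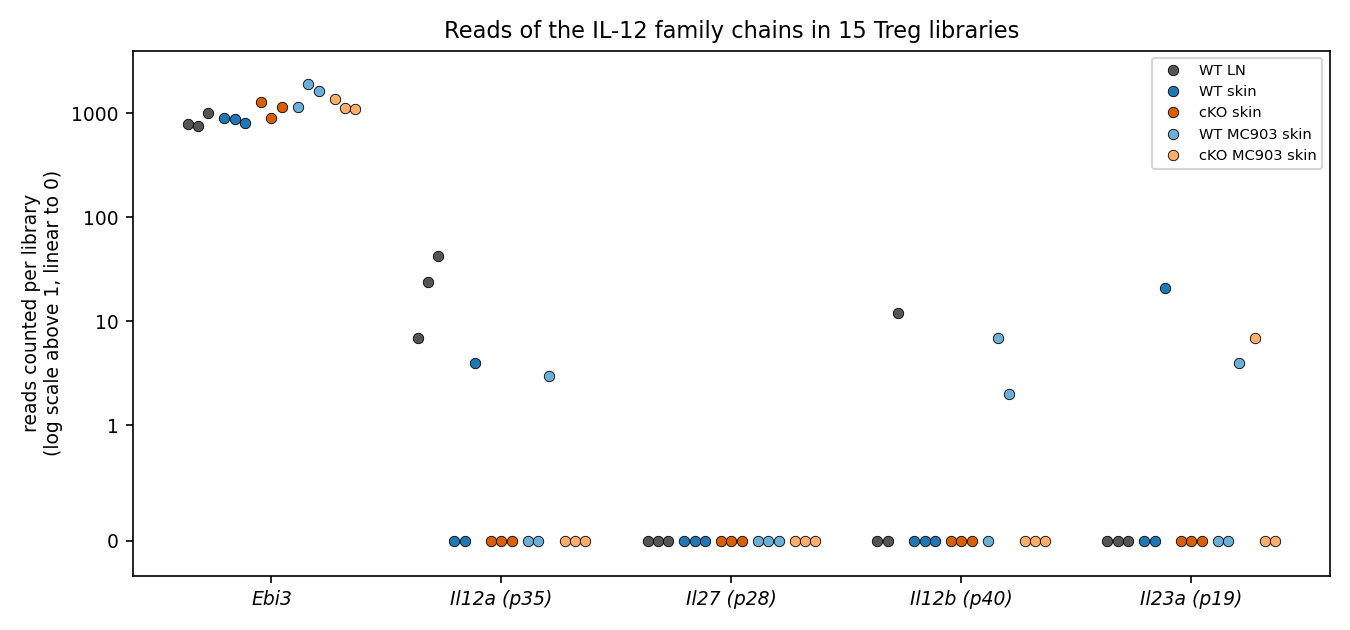
Reads counted per library (vertical axis, logarithmic above 1 and linear down to 0) for Ebi3 and the 4 other chains of the family (horizontal axis), with each of the 15 libraries as a point coloured by group. Ebi3 lies between 764 and 1922 reads in every library, Il12a is above 4 reads only in LN, and Il27 is at 0 throughout.

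The receptor chains for these cytokines were measured in the same cells. Il10ra, the ligand-binding chain of the IL-10 receptor, held 135, 112 and 94.99 CPM in WT skin and 208, 260 and 297 CPM in cKO skin. The level in WT MC903 skin was 123, 94.5 and 109 CPM, in cKO MC903 skin 198, 182 and 156 CPM, and in LN 74.8, 65.4 and 96.7 CPM. Every cKO library was above every WT library of its condition. The genotypes did not overlap, in either direction, for 13.6% of all tested genes in untreated skin and 16% under MC903. The cKO difference was 1.16 ± 0.18 on the log2 scale in untreated skin (edgeR adjusted p = 0.00386) and 0.94 ± 0.13 averaged over conditions (edgeR adjusted p = 6.16e-04). Under MC903 it was 0.72 ± 0.18 (edgeR adjusted p = 0.156). Of all tested genes, 0.803% were called between genotypes in untreated skin, 1.75% averaged over conditions and 0.258% under MC903. Il10ra was therefore higher in cKO untreated skin, where Il10 itself was 533 to 558 CPM against 545 to 555 CPM in WT.

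Of the 6 genes listed for the IL-10 receptor and its signalling, 3 rose and 2 fell from LN to WT skin, with a median of 0.29 on the log2 scale against 0.01 over all tested genes, of which 28.8% were called in each direction. Il10rb, the second receptor chain, held 156, 150 and 115 CPM in LN and 64.9, 56.4 and 89.3 CPM in WT skin, a change of -1.002 ± 0.167 (log2, SE; edgeR adjusted p = 1.14e-04). Stat3, the transcription factor activated by the receptor, rose by 2.23 ± 0.14 (edgeR adjusted p = 3.79e-09), and Socs3, a feedback inhibitor of STAT3 signalling, by 2.73 ± 0.34 (edgeR adjusted p = 2.56e-05). The rise of Il10ra from LN to WT skin (0.53 ± 0.18; edgeR adjusted p = 0.0187) was lost without LN replicate 1 or 2 or WT skin replicate 1.

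**Figure D4:**
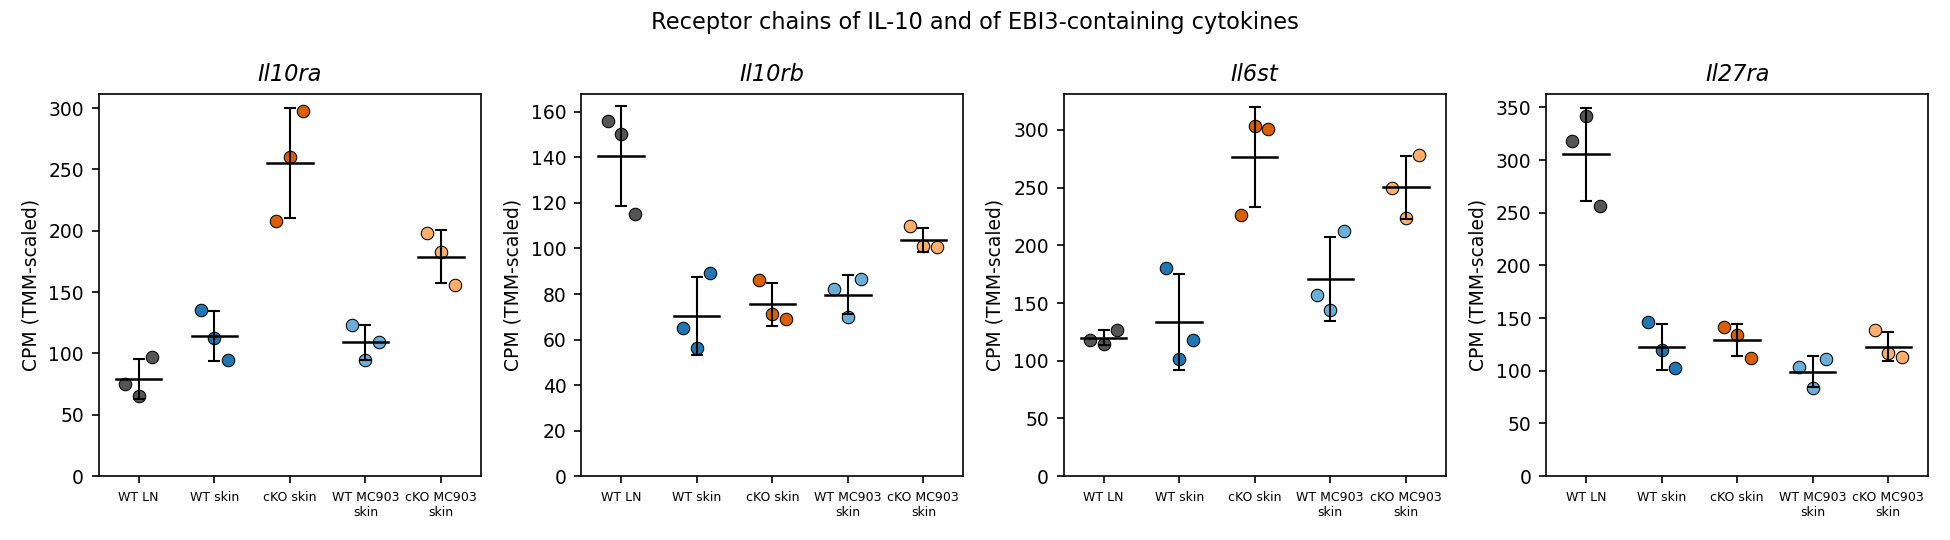
Levels in CPM (vertical axes, from 0) of Il10ra, Il10rb, Il6st and Il27ra in the 5 groups (horizontal axes). Points are libraries, horizontal bars are means and error bars are 1 SD (n = 3). Il10ra lies at 156 to 297 CPM in the cKO skin groups and at 94.5 to 135 CPM in the WT ones, and Il10rb and Il27ra are highest in LN.

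Among 11 genes of the IL-12 family receptors and their signalling, 2 rose and 3 fell from LN to WT skin, where 28.8% of all tested genes were called in each direction. Il27ra, a receptor chain for interleukin 27, held 318, 342 and 256 CPM in LN and 146, 119 and 103 CPM in WT skin, a change of -1.32 ± 0.16 (edgeR adjusted p = 4.95e-06). Il6st, which encodes gp130, the second chain of that receptor, held 181, 102 and 118 CPM in WT skin and 227, 303 and 300 CPM in cKO skin. WT MC903 skin had 157, 144 and 213 CPM and cKO MC903 skin 249, 224 and 278 CPM. Averaged over conditions it was higher in cKO by 0.80 ± 0.14 (edgeR adjusted p = 0.00478), and it was the 1 gene of the 11 called in that comparison, which called 1.75% of all tested genes.

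The Fc receptors for FGL2 had few reads. Fcgr2b and Fcgr3 encode the Fc receptors that bind it, and Fcgr3 lay between 0.388 and 2.74 CPM in LN, untreated skin and WT MC903 skin. In cKO MC903 skin Fcgr3 held 3.80, 15.1 and 4.86 CPM, above every cKO skin library, with a difference of 3.64 ± 0.65 from untreated cKO skin (edgeR adjusted p = 0.00439). In the same comparison 3 of the 18 tested macrophage, dendritic and Langerhans cell markers rose, where 5.96% of all tested genes were called higher. The sum of the 17 markers without class II genes and Cd74 was 110, 250 and 134 CPM in the cKO MC903 libraries. It was 218 CPM in WT skin replicate 3, where Fcgr3 was at 2.74 CPM. Fcgr2b, the inhibitory receptor, held 4.54, 17.1 and 9.53 CPM in cKO MC903 skin and 2.29, 3.62 and 1.13 CPM in cKO skin. Its groups did not overlap, which was true of 33.4% of all tested genes, and the difference was 2.15 ± 0.59 (edgeR adjusted p = 0.0351). That call was lost under a replicate block (edgeR adjusted p = 0.0576), without any 1 of the cKO skin libraries, and without cKO MC903 replicate 2 or 3 (1.58 without replicate 2). Whether such cells contributed the reads of these receptors was not tested.

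Most transcription factors listed as acting on Il10 were higher in skin Tregs. Of the 12 listed, 11 rose from LN to WT skin and 0 fell, with a median of 2.04 on the log2 scale against 0.01 over all tested genes, of which 28.8% were called higher and 28.8% lower. Batf, a basic leucine zipper factor that pairs with IRF4, rose by 1.90 ± 0.15 (edgeR adjusted p = 7.49e-08). Maf, which binds the Il10 promoter in T cells, rose by 2.18 ± 0.17 (edgeR adjusted p = 4.02e-08), and Stat5a by 1.82 ± 0.14 (edgeR adjusted p = 2.73e-08). Gata3, the type 2 lineage factor, rose by 1.51 ± 0.13 (edgeR adjusted p = 1.34e-07).

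Under MC903, where Il10 fell, 2 of these factors were called in WT and 5 in cKO, against 10.5% and 11.3% of all tested genes. In WT, 2 of the 12 rose and 0 fell: Stat5b by 0.61 ± 0.12 (edgeR adjusted p = 0.0045) and Batf by 0.62 ± 0.15 (edgeR adjusted p = 0.0184). The Batf call was lost without WT skin replicate 3 or WT MC903 replicate 3, and with the compared groups alone (edgeR adjusted p = 0.0556). In cKO, 2 rose and 3 fell, and the falls were Irf4 (-1.30 ± 0.25; edgeR adjusted p = 0.00465), Ahr (-0.99 ± 0.21; edgeR adjusted p = 0.00773) and Prdm1 (-0.88 ± 0.24; edgeR adjusted p = 0.0319). The Prdm1 call was lost without cKO skin replicate 2 or 3, and without any of the 3 cKO MC903 libraries. The medians of the list were 0.03 in WT and -0.13 in cKO, against 0.01 and -0.01 over all tested genes.

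Between genotypes, Ahr, a ligand-activated receptor that acts with MAF on Il10, held 75.1, 65.5 and 53.3 CPM in WT skin and 115, 148 and 162 CPM in cKO skin. WT MC903 skin had 55.0, 54.0 and 38.9 CPM and cKO MC903 skin 78.5, 67.3 and 67.7 CPM. The cKO libraries were above the WT ones in both conditions, where the genotypes did not overlap for 13.6% and 16% of all tested genes. The average difference was 0.83 ± 0.15 (edgeR adjusted p = 0.00614). Gata3 was higher by 0.48 ± 0.09 (edgeR adjusted p = 0.0106), and Stat5a lower by 0.39 on the log2 scale (fitted value -0.39 ± 0.10; edgeR adjusted p = 0.0482). The Stat5a call was lost when any 1 of the 12 skin libraries was left out. It was also lost with another scaling (edgeR adjusted p = 0.0592) and with the filter lowered to 1 read (edgeR adjusted p = 0.0548). Ahr, Gata3 and Stat5a were the 3 of 12 factors called in the averaged comparison, which called 1.75% of all tested genes.

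Other secreted factors with suppressive or repair roles gave a wider frame. Of 12 listed, 6 rose and 2 fell from LN to WT skin, with a median of 1.47 on the log2 scale against 0.01 over all tested genes, of which 28.8% were called in each direction. Gzmb, the granule protease granzyme B, rose by 6.40 ± 0.23 (edgeR adjusted p = 5.89e-11), and Areg, the epidermal growth factor receptor ligand amphiregulin, by 6.20 ± 0.22 (edgeR adjusted p = 3.84e-11). Lgals3, a galectin, rose by 4.43 ± 0.27 (edgeR adjusted p = 2.15e-08), and Tgfb1, the gene of transforming growth factor beta 1, by 1.80 ± 0.20 (edgeR adjusted p = 2.51e-06). Lgals9, another galectin, changed by -1.38 ± 0.16 (edgeR adjusted p = 2.80e-06).

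Under MC903, 5.44% of all tested genes were called lower in WT and 5.3% in cKO. Areg was the 1 gene of the 12 called lower, and it was so in both genotypes. It held 383, 518 and 334 CPM in WT skin and 173, 143 and 188 CPM in WT MC903 skin, a change of -1.29 ± 0.21 (edgeR adjusted p = 0.00148). In cKO it held 557, 391 and 425 CPM untreated and 233, 144 and 165 CPM treated, a change of -1.34 ± 0.21 (edgeR adjusted p = 0.00137). Il1r2, the decoy receptor of interleukin 1, rose by 1.01 ± 0.20 in WT under MC903 (edgeR adjusted p = 0.00481), where 5.03% of genes were called higher. In cKO it rose by 0.79 ± 0.20 (edgeR adjusted p = 0.0181), a call lost without cKO skin replicate 2 or 3 or any 1 of the cKO MC903 libraries. Higher values were called there for 5.96% of genes. Gzmb was higher in cKO skin, with 988, 841 and 973 CPM in WT skin and 5035, 3061 and 4016 CPM in cKO skin (2.11 ± 0.22 on the log2 scale; edgeR adjusted p = 2.35e-04). It was also higher in cKO under MC903, by 1.90 ± 0.22 (edgeR adjusted p = 8.83e-04). Of all tested genes, 0.398% were called higher in cKO in untreated skin and 0.081% under MC903.

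The relatives of Il10 were rare. Of 6 listed IL-10 family cytokines, 2 passed the filter. Il22, which acts on keratinocytes, had 4.19, 0.862 and 2.03 CPM in cKO skin and at most 0.238 CPM in every other library, and its difference between cKO and WT untreated skin was not called (edgeR adjusted p = 0.192). Il19 had 0 reads in the 3 LN libraries and 0 to 44 reads in the skin libraries. Il20 had 0 reads in all libraries. None of these approached the level of Il10.

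The genes whose level across libraries was most like that of each member were ranked by Pearson's r of log2 CPM, as a description, among 7906 named genes with a mean log2 CPM of 3 or more. Over all 15 libraries, in which LN and skin form 2 clusters, 892 genes had an r above 0.9 with Il10, 504 with Fgl2 and 11 with Ebi3. Over the 12 skin libraries, the closest to Il10 were Ctsw (0.96), a cathepsin of cytotoxic lymphocytes, Eif4e3 (0.96) and Tbx21 (0.95), which encodes the type 1 lineage factor T-bet. For Fgl2 they were Bcar1 (0.98), an adaptor protein, and Itgae (0.97), the CD103 integrin chain that binds E-cadherin, and Itgae was also the first over all 15 libraries (0.99). For Ebi3 the highest values were 0.89 for Btbd19, 0.89 for Tkt, a transketolase, and 0.88 for Tpx2, a spindle protein, and 0 genes were above 0.9. The points share the split between untreated and treated skin, so these values order genes and test nothing.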

How the data were processed

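RNA of sorted mouse Tregs was made into SMART-Seq v4 libraries and sequenced as 75 bp single-end reads, per the labels' protocols. The aligner was TopHat2 2.0.6 and the genome build mm9, per the submitters' processing notes. The counting tool, its annotation and its use of strand are not given in the sources used here. The authors deposited raw read counts for 24015 genes in 15 libraries. A second deposited table by the authors compares WT LN with WT skin. Per the file headers it holds log2 fold changes with standard errors, a test score and p-values with adjusted p-values, made with DESeq2 per the submitters' processing notes.

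From the counts, edgeR 4.0.16 (R 4.3.3) fitted group means over all 15 libraries with TMM scaling (factors 0.903 to 1.26) and robust quasi-likelihood dispersion, after its default filter on low counts left 13578 genes, among them 3 of the 4 members. Genes with a Benjamini-Hochberg adjusted p under 0.05 were called. Log2 CPM used to rank similar genes has a prior count of 2. The p-values weigh each group difference against the spread between these libraries, shared over the 5 groups and drawn towards that of other genes. SEs are Wald-type. Alternatives used DESeq2 1.42.0, limma-voom (limma 3.58.1), other scaling and filters, the compared groups alone, a replicate block and each library left out. The fit was tested on simulated counts. Exon lengths came from GENCODE M21 (GRCm38) and covered 95.4% of tested genes. Text names the members, at most 6 genes by adjusted p from each list, and 5 most similar genes. Rora, Gm16712, Ccdc146, Il20 and Il22 were named after their values were seen, as was the repeat of a list gene in a further comparison. The members and lists were chosen with earlier results of these data known.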

Additional observations from a re-analysis of the deposited data

How the results depend on the processing

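Of 171 member values under settings other than left-out libraries, 167 were counted as unchanged and 4 passed the threshold newly. For Il10, Fgl2 and Ebi3 unchanged means the same side of the threshold, and 0 of these values changed sign. Il12a has no side of the threshold. Its ratio was counted as unchanged when it moved by no more than the SD of log2 CPM between the LN libraries. The 4 concern Il10: for cKO against WT under MC903, DESeq2 gave 0.64 and limma-voom 0.65, and for the average over conditions both gave 0.32. With a library left out, 181 of 185 member values were unchanged by the same rules, and 9 values that were not called changed sign. The Ebi3 difference of WT skin from LN then ranged from 0.49 to 0.71, the Ebi3 difference under MC903 in WT from 0.36 to 0.70, and the Fgl2 difference under MC903 in cKO from -1.30 to -1.05, each crossing the threshold. Il12a, which has no fitted value, had a log2 ratio of mean CPM of -3.45 (WT skin over LN) and -3.88 to -2.80 with a library left out. It could not be computed without WT skin replicate 3, and the replicate block, compared groups, stricter filter and limma-voom were not run for it.

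The replicate numbers did not pair the libraries: 3 of 30 same-numbered pairs correlated above 0.1 (median 0.01), and 5 of 15 libraries correlated best with their own number. The replicate block changed no member call, with Il10 under MC903 in WT at -1.45 (edgeR adjusted p = 2.91e-04), and genes called for cKO against WT in untreated skin went from 109 to 90.

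Counts of called genes moved more than those of the members. From edgeR to DESeq2 they went from 109 to 344 (cKO untreated; 60 to 133 with a library left out), 35 to 151 (cKO under MC903; 104 by limma-voom, 22 to 31 with a library left out), 237 to 485 (average) and 0 to 21 (interaction). For MC903 in WT the count was 1421, 541 with the compared groups alone and 767 to 1410 with a library left out. For MC903 in cKO it was 1529, 2642 by limma-voom and 645 to 1895 with a library left out. Of 71 called results of list genes, 20 lost their call under some setting and 0 reversed. Low depth limits Il12a, Il27, Il12b and Il23a.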
